A study of Caenorhabditis elegans with 12 samples.

Results

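Nonpolysomal RNA of ife-1 mutant and wild-type worms of the nematode Caenorhabditis elegans was compared on 6 Affymetrix arrays, 3 per genotype. They were chosen by the label of the fraction, out of 12 arrays in all, and no ratio to the other fraction entered the comparison. The mutant carried the allele bn127 of ife-1, and the control was the wild-type strain N2. Both were mixed cultures of worms, eggs and larvae, fed OP50 bacteria with added egg yolk for a final passage of 3 days at 20 °C. Frozen worms of separate harvests were lysed, the lysates were run on 10 to 45% sucrose, and the RNA lighter than 80S was pooled. Each of the 3 numbered growth sets gave 1 mutant and 1 wild-type array. Each array therefore holds the RNA of many animals of all stages. The polysomal RNA of the same cultures, which sedimented beyond 80S, is given below only where a nonpolysomal value is set beside it.

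eIF4E is the translation initiation factor that binds the cap at the 5′ end of an mRNA and recruits the small ribosomal subunit. C. elegans has several eIF4E isoforms, named IFE, and IFE-1 is the one of the germline that is bound to P granules, the RNA granules of germ cells. Worms without it are known for failing sperm and for poor oocyte maturation. mRNAs lighter than the monosome are not loaded with several ribosomes: they include mRNAs held in stored or repressed particles, mRNAs awaiting initiation, and messages too short or too rarely initiated to carry many ribosomes. The level of an mRNA in this fraction depends on its amount in the animals as well as on its translation.

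The deposited table holds 13333 probe sets after the removal of controls, and these name 10334 genes. The authors had reduced it on detection from 22626 probe sets. Shares below are therefore of the deposited probe sets and genes, not of the whole array. Median deposited signals of the nonpolysomal arrays were 367.3 to 386. Pearson correlations of normalized log2 signal across probe sets were 0.963 to 0.981 between mutant arrays, 0.916 to 0.967 between wild-type arrays and 0.857 to 0.914 between genotypes. Wild-type set 2 stood apart: its correlations with the other wild-type arrays were 0.924 and 0.916. On it the 23 major sperm protein genes summed to a deposited signal of 119305, against 405636 and 330100.4 in the other wild-type sets, and results on sperm genes are given with and without it. Bacterial control probe sets averaged 1462, 1237 and 1140 in the wild-type sets and 892, 1163 and 576 in the mutant sets (geometric means of deposited signal). Changes below are relative to the bulk of the mRNA on each array, and the setting scaled on these controls is given beside the lists whose median or balance of calls it turns. With 3 arrays per group, their number limits the precision.

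The first question was how much of the nonpolysomal transcriptome differed between the genotypes. By limma with Benjamini-Hochberg adjustment over all probe sets, 1875 probe sets were higher in ife-1 (14.1% of those tested) and 1758 were lower (13.2%), at adjusted p below 0.05. Counted once per gene by the brightest probe set, 1328 genes were higher (12.9%) and 1483 were lower (14.4%), with a median log2 change of 0.04 over all genes. More falls than rises were large. A change of at least 2-fold was reached by 993 of the lower and 581 of the higher genes, of 4-fold by 162 and 36, and of 8-fold by 32 and 8. These counts use fitted changes after quantile normalization, also for genes without a present call in their lower group. They were not made under the other scalings. Without any model, all 3 mutant signals lay above all 3 wild-type signals for 2564 genes (24.8%) and below them for 2268 genes (21.9%). Of 562 further probe sets of the called genes, 523 changed in the same direction as the brightest one and 285 of these passed the threshold, while 4 passed it in the opposite direction. The numbers rest on sets 1 and 3: without set 1 the counts of probe sets were 7 higher and 21 lower, without set 3 they were 2 and 1, and without set 2 they were 2207 and 2209. With scaling on the bacterial controls, the median of all genes moved to 0.50 and the counts became 3399 higher and 465 lower.

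**Figure D1:**
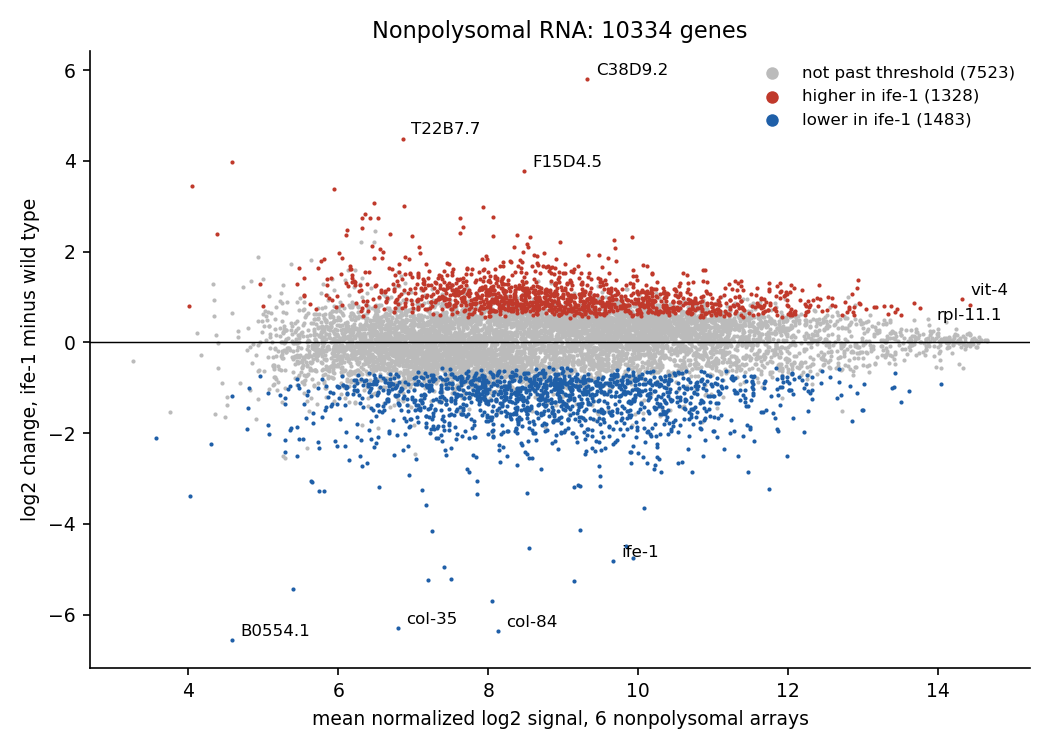
The log2 change between ife-1 and wild type is plotted for each of the 10334 genes against its mean normalized log2 signal on the 6 nonpolysomal arrays. Red points are the 1328 genes that were higher in ife-1, blue points the 1483 that were lower and grey points the others. Blue points reach -6.56 at B0554.1, and C38D9.2 stands alone at the top at 5.81. The mutant signals of B0554.1 were 1, 1 and 3.4, at or near the floor of 1, so only a bound of 12-fold holds for it.

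The mutated gene came first among the checks. ife-1 gave deposited signals of 4575, 3567 and 5997 in wild-type sets 1 to 3 and of 106, 178 and 113 in the mutant. The groups did not overlap, and the probe set was called present on 3 of 3 wild-type and 0 of 3 mutant arrays. Where a gene has no present call in its lower group, only a bound is given, computed against the weakest signal that was called present or the gene's own signal, whichever is higher. Bounds are computed from means of normalized log2 values, so they need not equal ratios of the printed signals, and where the gene's own signal is the higher one the bound equals the fitted fold. ife-1 fell at least 28.5-fold (adjusted p = 0.000535). No source used here says which part of the gene the probe set covers relative to the bn127 lesion.

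Among the other cap-binding isoforms, ife-3 and ife-5 rose in nonpolysomal RNA. ife-3, the worm's general eIF4E, gave 2524, 2959.5 and 2833 in the wild-type sets and 5373, 5320.2 and 6661 in the mutant. Every mutant array lay above every wild-type array, and the gene rose by 1.07 ± 0.19 on the log2 scale (SE, n = 3 per group; adjusted p = 0.00983). ife-5, a close relative of ife-1, gave 238, 190.1 and 168 and 342, 339.7 and 351, again without overlap, and rose by 0.96 ± 0.21 (adjusted p = 0.0186). The isoforms ife-2 and ife-4, which somatic tissues use, did not pass the threshold. ife-2 signals were 158, 406 and 258 in the wild-type sets and 544, 518 and 428 in the mutant, a difference of 0.98 ± 0.36 (adjusted p = 0.08). ife-4 gave 93.5, 114 and 60.1 and 109, 118.8 and 111, with present calls on 0 of 3 wild-type and 3 of 3 mutant arrays and a difference of 0.76 ± 0.28 (adjusted p = 0.0777). The groups of these last isoforms do not overlap after normalization, as is the case for 24.8% of all genes in that direction.

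The highest rise of all was that of C38D9.2, for which the files give no function. Its signals were 114, 83.0 and 84.3 in wild type, with no present call, and 3911, 4946 and 5524 in the mutant. After normalization it was at least 56.1-fold higher in ife-1 (adjusted p = 8.92e-05), and no mutant array came near any wild-type array. T22B7.7 gave 18.4, 83.6 and 14.1 in wild type, also without a present call, and 626, 439.5 and 612 in the mutant, and was at least 20.2-fold higher (adjusted p = 0.00535). F15D4.5, called present on 1 of 3 wild-type arrays, gave 87.9, 139.6 and 91.9 and 1222, 1707 and 1341 and rose by 3.78 ± 0.27 (adjusted p = 0.00124). None of the 3 genes was called present on more than 1 wild-type array.

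Other strong rises began from undetected wild-type levels, so that the fold is a bound. The bound was 8.35-fold for pifk-1B, 8.06-fold for Y54F10AM.11, 7.12-fold for lin-15B and 6.99-fold for citk-1. lin-15B encodes a chromatin regulator that keeps germline genes off in somatic cells, and citk-1 a kinase of the citron type. It was 6.66-fold for R09F10.8, 6.64-fold for vps-18, a tethering subunit of the lysosomal fusion machinery, 5.82-fold for Y47H10A.5 and 5.36-fold for F25H9.2. Their adjusted p-values lay between 0.00231 for lin-15B and 0.0192 for Y47H10A.5. The antimicrobial peptide gene cnc-6 passed the test too, but was called present on none of the 6 arrays, and no fold is given.

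Among the genes with large rises, nspe-7 was called present on 3 of 3 wild-type arrays. It is a member of a nematode-specific peptide family. Its signals of 92.3, 91.6 and 98.8 became 743, 946 and 488, a rise of 2.99 ± 0.25 (adjusted p = 0.00159). cdk-11.2, a cyclin-dependent kinase gene, gave 137, 179 and 54.5 in the wild-type sets and 548, 983 and 653 in the mutant and rose by 2.76 ± 0.48 (adjusted p = 0.00896). irg-2, an infection response gene called present on 2 of 3 wild-type arrays, gave 106, 66.2 and 83.7 and 511, 508 and 483 and rose by 2.74 ± 0.22 (adjusted p = 0.00153). The 3 mutant values of irg-2 are nearly equal, whereas those of nspe-7 and cdk-11.2 spread more; in no case did the groups overlap.

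Among the 15 largest falls, 8 were of genes named as cuticle collagens. col-84 gave 1660.4, 4137 and 2292 in the wild-type sets and 9.60, 99.5 and 12.6 in the mutant, where it was never called present. It was at least 73.7-fold lower (adjusted p = 0.00293). The mutant array of set 2 kept the highest residual signal, and the groups were still far apart. By the same bound, col-102 was 50.2-fold, col-35 49.2-fold, col-51 24.3-fold and col-50 17.5-fold lower at the least. col-37 fell by 5.25 ± 0.47 (adjusted p = 0.00191), col-2 by 4.76 ± 0.58 (adjusted p = 0.0034) and col-85 by 4.49 ± 0.27 (adjusted p = 0.000731), each with present calls on 1 or 2 of the 3 mutant arrays.

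Apart from ife-1 itself, the other large falls belonged to secreted proteins and to genes without a named role. grl-20 encodes a ground-like protein related to hedgehog. By its brightest probe set the signals were 1282, 2664 and 1494 in the wild-type sets and 42, 165 and 40.4 in the mutant, at least 23.3-fold lower (adjusted p = 0.00316). Another probe set of grl-20 gave 480.5, 1229.4 and 836.4 and 91, 104.8 and 78.4, at least 7.93-fold lower (adjusted p = 0.00285). There the nonpolysomal change of -2.99 ± 0.33 differed from the polysomal change of -5.13 ± 0.30 (limma on the difference, adjusted p = 0.0435). The related grl-23, present on 1 of 3 mutant arrays, fell by 5.22 ± 0.82 (adjusted p = 0.00666), and mutant set 2 again held the highest value, 106 against 7.20 and 12.9. clec-82, a C-type lectin gene, was at least 15.4-fold lower (adjusted p = 0.00608). F58E6.4 was at least 34-fold lower, M6.11 14.2-fold and B0554.1 12-fold, and no mutant array gave a present call for any of the 3. In all, 132 of the lower genes were called present on 3 of 3 wild-type and 0 of 3 mutant arrays, and 68 of the higher genes on 0 of 3 wild-type and 3 of 3 mutant arrays. Whether past the threshold or not, 195 and 117 of the 10334 genes had these patterns. The authors had reduced the table on detection, so these counts depend on that filter as well.

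**Figure D2:**
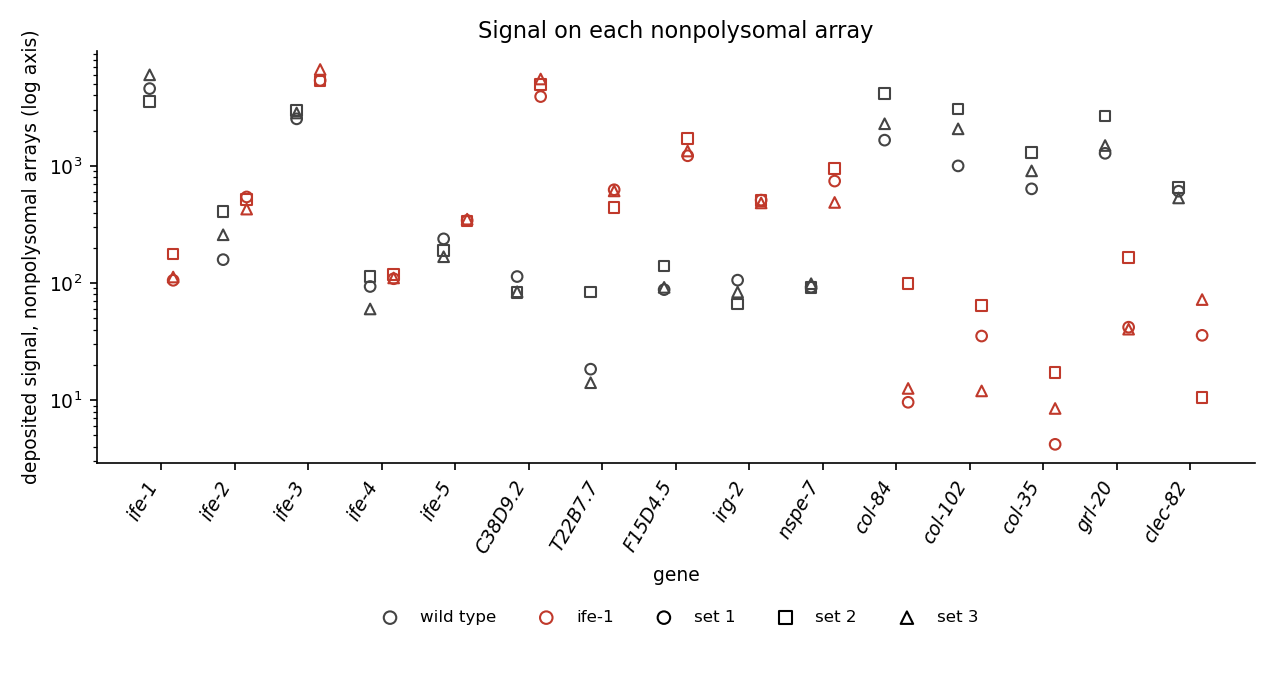
Deposited signal on a log axis is plotted for the 5 eIF4E isoforms, 5 genes with large rises and 5 with large falls, with wild type in grey and ife-1 in red and 1 symbol shape per set. The mutant ife-1 signals of 106 to 178 lie far below the wild-type signals of 3567 to 5997, and C38D9.2 shows the reverse.

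Genes of the oocyte and early embryo were among those that rose, and none of the tested members fell. Of 32 maternal RNA-binding and cell-fate regulators, 13 rose and 0 fell, with a median log2 change of 0.80, against 0.04 over all genes and 12.9% of genes higher. Of 18 eggshell and egg activation genes, 9 rose and 0 fell, with a median of 0.87. The summed signal of the maternal list was 84812 to 100842 on the wild-type and 135460.1 to 141800.1 on the mutant arrays, and that of the eggshell list 56801 to 81122 and 98342 to 120139. In such bulk RNA, more cells of a type and more of an mRNA per cell cannot be told apart, and this holds for every list below.

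Within the maternal list, the zinc finger genes oma-2 and mex-5 rose, as did genes of cell signalling and of the meiotic spindle. oma-2, which acts in oocyte maturation, gave 3012, 2152 and 3250.0 in the wild-type sets and 5972, 4556 and 6552 in the mutant, without overlap, and rose by 1.05 ± 0.24 (adjusted p = 0.0204). mex-5, which sets the anterior-posterior axis of the zygote, rose by 0.91 ± 0.19 (adjusted p = 0.0137). nos-2, a Nanos relative of the germ cell precursors, rose by 1.09, the Notch ligand gene apx-1 by 1.06, the katanin subunit gene mei-2 by 0.81 and the ubiquitin ligase substrate receptor gene zif-1 by 0.80. Their adjusted p-values were 0.0117 to 0.0222.

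In the eggshell list, chs-1, the chitin synthase gene of the eggshell, gave 657, 362 and 839 in the wild-type sets and 2222, 1806 and 2260.0 in the mutant. It rose by 1.67 ± 0.32 (adjusted p = 0.0113), with no overlap, and set 2 was the lowest of each group. perm-1, needed for the permeability barrier, rose by 1.53 ± 0.21 (adjusted p = 0.00451). The oocyte surface genes egg-1 and egg-2, which act at fertilization, rose by 1.25 and 1.11, the chitin-binding gene cbd-1 by 1.07 and the acyltransferase gene dgtr-1 by 0.83. cyp-31A3, a cytochrome P450 gene of the eggshell lipid layer, rose by 0.85 (adjusted p = 0.0195).

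For 4 maternal mRNAs reported earlier as less well translated without IFE-1, the nonpolysomal values did not pass the threshold. pos-1 gave 12586, 11149 and 8264 in the wild-type sets and 11710.3, 13061 and 9925 in the mutant, a difference of 0.44 ± 0.19 after normalization (adjusted p = 0.129). pal-1 gave 9392, 8792 and 6023 and 8961, 10464 and 8125, a difference of 0.49 ± 0.20 (adjusted p = 0.104). Deposited signals of both overlap between the genotypes. mex-1 gave 2510.2, 949 and 2353 and 2978, 3401 and 3944, a difference of 0.86 ± 0.36 (adjusted p = 0.113), with wild-type set 2 far below the others. For oma-1 the values were 534, 396 and 935 and 1308, 954 and 1312, a difference of 0.82 ± 0.33 (adjusted p = 0.0972). All 4 differences point upward. In polysomal RNA the differences were 0.94 ± 0.24 for pos-1, 1.09 ± 0.24 for pal-1, 1.08 ± 0.18 for mex-1 and 1.5 ± 0.28 for oma-1, with adjusted p of 0.02, 0.012, 0.00469 and 0.00683. The test of the difference between fractions passed for none of them (adjusted p = 0.2 to 0.797).

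P granule genes had a median of 0.89, with 8 of 14 higher (57.1%, beside 12.9% of all genes) and 0 lower. pgl-1, whose product is a core P granule protein, gave 603, 402 and 596 in the wild-type sets and 2114, 1089.7 and 2428 in the mutant. It rose by 1.59 ± 0.33 (adjusted p = 0.0152), and all mutant arrays lay above all wild-type arrays, set 2 the least. Its paralog pgl-3 rose by 1.33, the P granule gene deps-1 by 0.91, and meg-4 and meg-1, which act in granules of the early embryo, by 1.03 and by 0.82 (adjusted p = 0.0579 for meg-1 with the set as a block). The helicase gene glh-3 had no present call in wild type and was at least 3.07-fold higher (adjusted p = 0.0124).

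Of 31 genes of Argonaute proteins and small RNA pathways, 9 rose (29%, beside 12.9% of all genes) and 0 fell (median 0.52). csr-1, an Argonaute gene that germ cells require, gave 244, 219.8 and 251 in the wild-type sets and 988, 414 and 1204 in the mutant, and rose by 1.69 ± 0.35 (adjusted p = 0.0142). The mutant array of set 2 lay well below the other mutant arrays and still above every wild-type array. ergo-1, an Argonaute gene of an endogenous small RNA pathway, rose by 1.66 ± 0.21 (adjusted p = 0.00377), the Piwi gene prg-1 by 1.12, the RNA polymerase gene rrf-3 by 1.08, the Dicer gene dcr-1 by 0.99 and ekl-1 by 0.92. Their adjusted p-values were 0.00889 to 0.0206.

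Germline translation and sex determination regulators had 6 of 29 members higher (20.7%, beside 12.9% of all genes) and 0 lower (median 0.46). nos-3, a Nanos relative that acts in the sperm-to-oocyte switch, gave 1526, 1447 and 1458 in the wild-type sets and 3564, 4263 and 4202 in the mutant, well apart, and rose by 1.35 ± 0.18 (adjusted p = 0.00412). Rises were also called for the RNA helicase genes mog-5 (1.45) and mog-4 (1.14), which act in the same switch, and for the sex determination genes tra-2 (1.0) and fem-2 (0.65). With the set as a block, the adjusted p of fem-2 was 0.0597. tra-1, the last gene of that pathway, had no present call in wild type in spite of signals of 817, 569 and 748, and was at least 1.57-fold higher (adjusted p = 0.0487, and 0.0646 with the set as a block).

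Meiotic chromosome genes had 13 of 46 members higher (28.3%, beside 12.9% of all genes) and 0 lower (median 0.51). rad-50, which acts in DNA break repair, gave 274, 162 and 214 in the wild-type sets and 901, 988 and 581 in the mutant, without overlap, and rose by 1.90 ± 0.29 (adjusted p = 0.00618). The checkpoint gene pch-2 rose by 1.23, the cohesin gene coh-3 by 1.16, him-17 by 0.93 and the axis gene htp-2 by 0.88. zhp-2 was called present on no wild-type array and was at least 2.31-fold higher. Among germline and dosage compensation chromatin regulators, 7 of 27 were higher (25.9%, beside 12.9% of all genes) and 0 lower (median 0.44). The histone demethylase gene spr-5 rose by 1.39 ± 0.18 (adjusted p = 0.00398), the Polycomb-type gene mes-2 by 1.33 and the condensin gene dpy-26 by 1.23.

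Cell cycle, DNA replication and spindle genes moved in the same direction, with 23 of 72 higher (31.9%) and 1 lower (1.39%). Their median was 0.57, and 12.9% of all genes were higher and 14.4% lower. mcm-3, a subunit of the replicative helicase, gave 764, 512 and 681 in the wild-type sets and 2119, 1839 and 2193 in the mutant and rose by 1.5 ± 0.21 (adjusted p = 0.005). The mutant values of mcm-3 lie close together and all above the wild-type ones. The mitotic kinase gene cdk-1 rose by 1.25, the licensing gene cdc-6 by 1.17, the spindle checkpoint gene mdf-2 by 1.36 and the centrosome gene spd-2 by 0.82. The exception was cki-1, an inhibitor of cyclin-dependent kinases, whose signals of 1538, 1981 and 1428 in wild type stood above those of 677, 801 and 761 in the mutant. cki-1 fell by 1.26 ± 0.20 (adjusted p = 0.00662).

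Yolk protein genes are transcribed in the intestine of adult hermaphrodites, and 4 of 5 rose (80%, beside 12.9% of all genes). Their median was 0.87 after quantile normalization and 0.60 with signals as deposited. vit-2 gave 6855, 7229 and 6257 in the wild-type sets and 11356, 11896 and 8409 in the mutant and rose by 0.85 ± 0.18 (adjusted p = 0.0174). vit-4 gave 23430.2, 20574 and 18714 and 26617, 32966 and 23649, among the brightest signals of the array, and rose by 0.95 ± 0.17 (adjusted p = 0.00989). Neither group overlapped. vit-6 rose by 0.87 and vit-5 by 0.82, while vit-1 differed by 0.91 ± 0.29 (adjusted p = 0.0508).

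Other intestine genes did not follow the yolk genes. Of 40 intestine genes, 0 rose and 16 fell (14.4% of all genes fell), with a median of -0.71; with scaling on the bacterial controls 3 fell and 1 rose, at a median of -0.19. ifc-1, an intermediate filament gene of the intestinal cell border, gave 1635, 2503 and 2204 in the wild-type sets and 139.6, 308 and 209 in the mutant, far apart, and fell by 3.16 ± 0.28 (adjusted p = 0.00191). The partner filament gene ifb-2 fell by 1.66, the gut acid phosphatase gene pho-1 by 2.2, the lipid-binding genes lbp-5 and lbp-6 by 1.90 and 1.24, and the ferritin gene ftn-1 by 1.11. The summed signal of the list was 194021 to 254409 on the wild-type and 133234 to 156597 on the mutant arrays.

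The epidermis and its cuticle held the list with the lowest median. Of 111 cuticle collagen genes, 82 fell (73.9%, beside 14.4% of all genes) and 0 rose, with a median of -1.66. For 93 of them all mutant signals lay below all wild-type signals, as for 21.9% of all genes. By set the median was -1.73, -1.30 and -1.72. With scaling on the bacterial controls, 60 still fell and 0 rose. Summed signal of the list was 755960.2 to 864046 in wild type and 308996 to 398565 in the mutant. The brighter members included col-39, with 8964, 7446 and 11773 in the wild-type sets and 949, 1381 and 1065 in the mutant, which fell by 2.86 ± 0.24 (adjusted p = 0.00161). col-36 fell by 3.64, with 2 of 3 present calls in the mutant, and col-77 by 2.66. Of 111 members, 57 have probe sets whose names mark possible cross-hybridization, so single paralogs of this family are less certain than the family.

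Some enzymes and proteases that process cuticle proteins fell too. Of 40 molting and cuticle assembly genes, 15 fell (37.5%, beside 14.4% of all genes) and 0 rose (median -0.53). With scaling on the bacterial controls 4 fell and 1 rose. phy-2, a prolyl hydroxylase subunit that modifies collagen, gave 627, 529 and 695 in the wild-type sets and 106, 143 and 90.6 in the mutant, without overlap, and fell by 2.32 ± 0.21 (adjusted p = 0.00194). pdi-2, the disulfide isomerase of the same enzyme, fell by 1.18, the molting gene mlt-8 by 2.1, the astacin protease gene nas-7 by 1.27 and the cuticlin gene cut-3 by 1.07. mlt-9 had no present call in the mutant and was at least 3.33-fold lower.

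Hedgehog-related and patched-related genes, many of them active in the epidermis during molts, had 31 of 49 members lower and 1 higher (median -1.03). These are 63.3% and 2.04%, beside 14.4% and 12.9% of all genes. Among the ligand-like groups 6 of 6 grd genes, 13 of 16 grl genes and 3 of 5 wrt genes fell. Of the 18 patched-related ptr genes 8 fell and 1 rose, and the difference between these groups was not tested. grd-10 gave 2568, 4838 and 2320.2 in the wild-type sets and 397, 592 and 383 in the mutant and fell by 2.71 ± 0.29 (adjusted p = 0.00279). grd-3 fell by 2.41, grl-16 by 2.07 and the patched-related gene ptr-23 by 1.56; grl-3, with 1 of 3 present calls in the mutant, fell by 2.21. With scaling on the bacterial controls, 11 of the list fell and 2 rose.

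Neuropeptide genes, whose products signal from neurons, were mostly lower. Of 87 neuropeptide and insulin-like peptide genes, 58 fell (66.7%) and 1 rose (1.15%), beside 14.4% and 12.9% of all genes. The median was -1.08, and with scaling on the bacterial controls 17 fell. The FMRFamide-like flp genes had 20 of 22 lower, with a median of -1.37, the nlp genes 31 of 47, with a median of -1.06, and the insulin-like ins genes 6 of 14, with a median of -0.66 and 1 higher. flp-15 gave 1880.4, 1908 and 1863 in the wild-type sets and 515, 549 and 462 in the mutant. Both groups are tight and far apart, and flp-15 fell by 1.93 ± 0.17 (adjusted p = 0.00191). nlp-20 fell by 2.19, nlp-50 by 2.08 and nlp-51 by 1.65. flp-21 was at least 4.05-fold and ins-35 at least 7.22-fold lower, both without a present call in the mutant.

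Other genes of neurons were counted apart from the peptides, and the difference between the lists was not tested. Of 42 neuronal and synaptic genes, 11 fell (26.2%, beside 14.4% of all genes) and 1 rose (2.38%, beside 12.9%). The median of -0.34 turned to 0.11 with scaling on the bacterial controls, where 1 fell and 3 rose. egl-3, the proprotein convertase that cuts neuropeptide precursors, gave 4102, 3509 and 4358 in the wild-type sets and 1009, 2062 and 1144 in the mutant and fell by 1.6 ± 0.30 (adjusted p = 0.0109). The dense core vesicle gene ida-1 fell by 1.25, the vesicle genes rab-3 and snt-1 by 1.57 and 1.36, the glutamate transporter gene eat-4 by 1.73 and the GABA receptor gene unc-49 by 1.1. No member overlapped between the genotypes among these 6. The markers glr-1, osm-5 and snf-11 were called present on none of the 6 arrays.

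Muscle genes had 13 of 49 members lower (26.5%, beside 14.4% of all genes) and 0 higher, with a median of -0.52. With scaling on the bacterial controls the median was 0.02, and 0 fell and 0 rose. tnc-2, a troponin C gene, gave 1986, 2722 and 2359.8 in the wild-type sets and 762, 742 and 775 in the mutant, without overlap, and fell by 1.71 ± 0.18 (adjusted p = 0.00267). The actinin-associated gene alp-1 fell by 1.13, the calponin gene cpn-4 by 1.20, the perlecan gene unc-52 by 0.96, dim-1 by 1.05 and myo-1, a myosin gene of the pharynx, by 1.06. Among 21 transcription factors of embryonic and larval cell fate, 5 fell (23.8%) and 2 rose (9.52%), beside 14.4% and 12.9% of all genes. The median was -0.25, and 0.17 with scaling on the bacterial controls, where 2 fell and 4 rose. The epidermal GATA factor gene elt-3 fell by 1.1. The Hox gene ceh-13 fell by 1.5, with 1 of 3 present calls in the mutant.

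The calls of sperm genes depended on 1 array. With all arrays, 0 of 23 major sperm protein genes and 0 of 27 other sperm genes rose and 0 of either list fell by limma's adjusted p, and at an unadjusted p below 0.05 the major sperm proteins had 0 in either direction and the other sperm genes 1 in each. msp-142 gave 9188, 1367 and 7712 in the wild-type sets and 2383, 2376 and 2368 in the mutant. Wild-type set 2 lay below, and the other wild-type sets far above, all mutant arrays. The difference of msp-142 was -0.88 ± 0.58 (adjusted p = 0.281). By set, the median of the major sperm proteins was -0.80, 0.80 and -0.74 and that of the other sperm genes -1.38, 1.0 and -1.28. Without the wild-type array of set 2, 12 major sperm protein genes and 18 other sperm genes fell, with medians of -0.77 and -1.20, and 0 rose in either list. With all arrays scaled on the bacterial controls, the medians were 0.01 and 0.10 instead of -0.23 and -0.34. Probe sets of all 23 major sperm protein genes may detect several of these near-identical paralogs. ssp-10, a sperm-specific gene, gave 4493, 747 and 4944 in the wild-type sets and 984, 1256 and 786 in the mutant, the same pattern, with a difference of -1.42 ± 0.63 (adjusted p = 0.128).

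The nematode-specific small peptide families split by name. All 4 nspb genes fell, with a median of -1.70, 2 of 4 nspe genes rose and 0 fell, and 0 of 5 nspd genes passed the threshold, with a median of -1.14 and set medians of -2.27, 0.95 and -2.33. nspb-10 gave 1685, 803 and 2051 in the wild-type sets and 236, 286 and 291 in the mutant. It fell by 2.32 ± 0.34 (adjusted p = 0.00535), and wild-type set 2, the lowest of its group, still stood above all mutant arrays. Without that array, 10 of the 14 peptide genes were lower and 2 higher, against 5 and 2 with it.

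**Figure D3:**
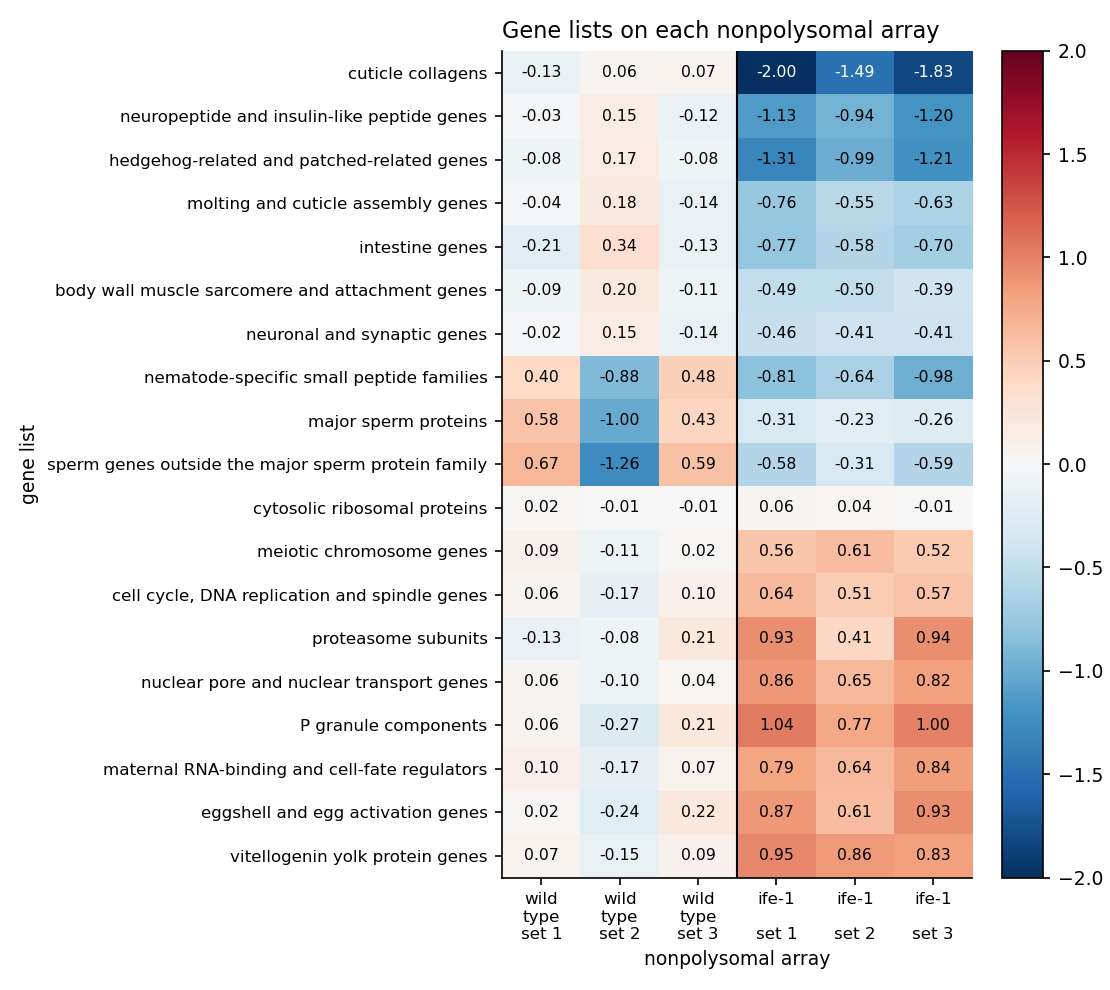
For 19 gene lists the mean normalized log2 signal on each nonpolysomal array is shown as its difference from the mean of the 3 wild-type arrays, with blue for lower and red for higher. Collagens stand at -2.0, -1.49 and -1.83 on the mutant arrays, and the sperm lists stand at -1.0 and -1.26 on wild-type set 2, against 0.43 to 0.67 on the other wild-type arrays.

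Among the genes of protein turnover, part of the proteasome subunits rose. Of 33 subunit genes, 15 were higher (45.5%, beside 12.9% of all genes) and 0 lower (median 0.76). On all arrays 23 of the 33 lay above wild type, as did 24.8% of all genes. rpn-11, the deubiquitinating subunit of the regulatory particle, gave 494, 450.5 and 519.6 in the wild-type sets and 1897, 852 and 1719.9 in the mutant and rose by 1.36 ± 0.30 (adjusted p = 0.0174). The mutant array of set 2 lay nearest to wild type for rpn-11. pas-7, an alpha subunit gene of the core, rose by 1.54, the ATPase gene rpt-5 by 1.45, and rpn-3, rpn-5 and rpn-12 of the regulatory particle by 1.13, 0.78 and 0.77. Within the complex, 9 of 13 rpn genes passed, against 2 of 6 rpt, 2 of 7 pas and 2 of 7 pbs genes. Set medians of the whole list were 1.03, 0.49 and 0.75.

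Nuclear pore and nuclear transport genes had 21 of 40 members higher (52.5%, beside 12.9% of all genes) and 0 lower (median 0.78). On all arrays 31 of the 40 lay above wild type, as did 24.8% of all genes. npp-21, a nucleoporin gene, gave 251, 180.5 and 243 in the wild-type sets and 929, 585 and 818 in the mutant, without overlap, and rose by 1.75 ± 0.23 (adjusted p = 0.00437). The nucleoporin genes npp-12, npp-6, npp-13 and npp-8 rose by 1.66, 1.33, 1.05 and 0.95, and the Ran import factor gene ran-4 by 1.14. All 25 npp genes had a positive change. Splicing factor and snRNP genes had 6 of 46 higher, 13% beside 12.9% of all genes, and 0 lower (median 0.43), with the U5 particle genes snrp-200, eftu-2 and prp-8 rising by 1.61, 1.0 and 0.91. snrp-200 had 2 of 3 present calls in wild type.

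Translation factors and ribosomal proteins were counted apart. Of 30 initiation factors and cap or poly(A) binding proteins other than the eIF4E isoforms, 7 rose (23.3%, beside 12.9% of all genes) and 0 fell (median 0.50). eif-2Bdelta, a subunit gene of the exchange factor of eIF2, had no present call in wild type and was at least 5.20-fold higher (adjusted p = 0.0107). eif-3.I, a subunit gene of the scaffold factor eIF3, gave 275, 408 and 325 in the wild-type sets and 1054, 612 and 1114 in the mutant and rose by 1.32 ± 0.27 (adjusted p = 0.0145). eif-2D rose by 0.98 and eif-2Bepsilon by 1.03. Elongation and release factors and tRNA synthetases had 8 of 43 higher (18.6%, beside 12.9% of all genes) and 0 lower (median 0.32). They were led by fars-2, a phenylalanyl-tRNA synthetase gene, with 1.58 ± 0.24 (adjusted p = 0.00634). Of the ribosomal list, 0 of 70 cytosolic ribosomal protein genes rose and 0 fell, with a median of 0.04 after quantile normalization, -0.40 with signals as deposited and 0.19 with scaling on the bacterial controls. At an unadjusted limma p below 0.05 the count was 0 in each direction as well. rps-8 gave 20629.5, 23839 and 18009 in the wild-type sets and 18760.5, 20064 and 17287 in the mutant, an overlap of the deposited signals, and a difference of 0.29 ± 0.18 (adjusted p = 0.251). As for the yolk genes, the difference after normalization need not equal the ratio of the deposited signals.

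Genes of mRNA deadenylation, decapping and P bodies had 9 of 33 higher (27.3%, beside 12.9% of all genes) and 0 lower (median 0.44). dcap-1, a decapping subunit gene, gave 1156, 1047 and 732 in the wild-type sets and 2013, 2067 and 2059 in the mutant, without overlap, and rose by 0.92 ± 0.22 (adjusted p = 0.0244). edc-3, an enhancer of decapping, rose by 0.93, the exonuclease gene xrn-2 by 0.89, smg-5 of nonsense-mediated decay by 0.95 and lsm-4 by 0.94.

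Mitochondrial genes had few calls in this setting. Of 50 oxidative phosphorylation genes, 3 rose and 4 fell, and of 57 mitochondrial ribosomal protein genes 5 rose and 2 fell, shares below those of all genes. Under the bacterial scaling the first list had 5 higher and 0 lower, at a median of 0.22 instead of -0.11, and the second 16 higher and 0 lower. mrps-15 gave 219, 259.7 and 178 in the wild-type sets and 676, 712 and 712 in the mutant and rose by 1.68 ± 0.22 (adjusted p = 0.00433). The ATP synthase gene asg-2, with 14011, 13684 and 11436 and 5654, 4882 and 4976, fell by 0.97 ± 0.18 (adjusted p = 0.011). The succinate dehydrogenase gene sdha-2 rose by 1.32, and ucr-2.1, a gene of the cytochrome bc1 complex, fell by 0.85.

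Antimicrobial and infection response genes had 19 of 57 members lower (33.3%) and 6 higher (10.5%), beside 14.4% and 12.9% of all genes. The median was -0.42, and with scaling on the bacterial controls 3 were lower and 9 higher. The saposin-like spp genes fell in 8 of 14 cases and rose in 0, with spp-18 at 922, 767 and 673 in the wild-type sets and 157, 197 and 131 in the mutant, a fall of 2.16. spp-23 fell by 2.03, spp-4 by 1.76, spp-16 by 1.61 and the caenacin gene cnc-8 by 1.47. Of 75 C-type lectin genes, 19 fell and 4 rose, with a median of -0.32 that was 0.02 with scaling on the bacterial controls. clec-101, with 163, 175 and 186 in the wild-type sets and 8.40, 22.4 and 11 in the mutant and no present call there, was at least 7.94-fold lower (adjusted p = 0.00136). clec-223 went the other way and rose by 1.39 ± 0.20 (adjusted p = 0.00506). Transthyretin-related genes, a nematode family of small secreted proteins, had 15 of 34 lower (44.1%) and 1 higher (2.94%), with a median of -0.80. With scaling on the bacterial controls 2 were lower and 2 higher. ttr-18 fell by 1.79 and ttr-44 by 1.59.

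Among detoxification and redox genes the balance of calls turned with the scaling. Of 71 glutathione and UDP-glucuronosyl transferase genes, 24 fell (33.8%) and 5 rose (7.04%), beside 14.4% and 12.9% of all genes. The median was -0.35, while with scaling on the bacterial controls 4 fell and 7 rose. gst-10 gave 3724, 2913 and 3242 in the wild-type sets and 1202, 1318 and 1110.4 in the mutant, without overlap, and fell by 1.51 ± 0.19 (adjusted p = 0.00366). gsto-1 of the omega class fell by 1.66 and gst-6 by 1.6, and ugt-57, without a present call in the mutant, was at least 4.92-fold lower. Of 22 superoxide dismutase, catalase, peroxiredoxin and related genes, 5 fell (22.7%) and 1 rose (4.55%). With scaling on the bacterial controls 0 fell and 4 rose, at a median of 0.34 instead of -0.12. The fallen members include the glutathione peroxidase genes gpx-3 (1.26), gpx-5 (1.0) and gpx-7 (1.04), and the one that rose is the thioredoxin reductase gene trxr-1 (0.93). Of 55 heat shock and chaperone genes, 6 rose (10.9%) and 5 fell (9.09%), shares below the 12.9% and 14.4% of all genes. Among the small heat shock genes hsp-12.2 fell by 1.89 ± 0.22 (adjusted p = 0.00316), hsp-17 by 1.24 and hsp-12.1 by 1.52. The J-domain cochaperone genes dnj-15 and dnj-16 rose by 1.13 and 1.47. Of all 28 dnj genes 4 rose (14.3%) and 1 fell, and of 18 hsp genes 1 rose and 4 fell.

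Lipid metabolism genes had 25 of 88 members lower (28.4%, beside 14.4% of all genes) and 4 higher (4.55%, beside 12.9%). The median of -0.31 turned to 0.08 with scaling on the bacterial controls, where 1 fell and 9 rose. acox-1.1, an acyl-CoA oxidase gene of ascaroside pheromone synthesis, gave 804, 634 and 755 in the wild-type sets and 193, 305 and 230.0 in the mutant, without overlap, and fell by 1.53 ± 0.21 (adjusted p = 0.00478). The fatty acid and retinol binding genes far-8 and far-7 fell by 1.53 and 1.38, and the lipase-like gene lips-10 by 1.15. Its relatives lips-15 and lips-14 rose by 1.58 and by 1.85, the latter with 2 of 3 present calls in wild type. The elongase genes fell in 4 of 6 cases, and 0 of 7 desaturase genes (fat) passed the threshold.

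Adapters of ubiquitin ligases bring substrates to these enzymes. Of 161 F-box, MATH-BTB and Skp1-related genes, 32 rose (19.9%, beside 12.9% of all genes) and 13 fell. Their median was 0.23, and -0.01 with signals as deposited. The fbxa genes had 15 of 64 higher and 4 lower, and the fbxc genes 5 of 22 higher and 0 lower, whereas the math genes had 1 of 14 higher and 5 lower. fbxb-97, called present on 2 of 3 wild-type arrays, gave 74.1, 60.3 and 82.5 and 183, 339.5 and 130.4 and rose by 1.84 ± 0.31 (adjusted p = 0.00866). skr-7, a Skp1-related gene, rose by 1.34, and math-37, with 2 of 3 present calls in the mutant, fell by 1.98. Membrane trafficking genes had 15 of 85 higher (17.6%, beside 12.9% of all genes) and 3 lower (median 0.29). Among them were vps-52 with a rise of 1.99, vps-39 of 1.17 and the dynamin gene dyn-1 of 1.04. Cell death and engulfment genes had 5 of 26 higher (19.2%, beside 12.9% of all genes) and 1 lower. ced-3, the caspase gene of programmed cell death, gave 118, 133 and 95.9 in the wild-type sets and 251, 249.7 and 368 in the mutant and rose by 1.55 ± 0.24 (adjusted p = 0.00622). The BH3-only gene ced-13 was at least 2.66-fold higher, and the nuclease gene nuc-1 fell by 0.73.

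Receptor, cytochrome P450 and histone families had calls in both directions, and the balance shifted with the scaling. Of 132 chemoreceptor genes, 2 rose (1.52%) and 3 fell (2.27%), with a median of 0.01. odr-10, the diacetyl receptor gene, was among the latter, with 270.4, 412 and 328 in the wild-type sets and 91.7, 141.7 and 124 in the mutant and a fall of 1.31 ± 0.24 (adjusted p = 0.0103). Of 124 nuclear hormone receptor genes 9 rose (7.26%) and 13 fell (10.5%), and of 31 cytochrome P450 genes 2 (6.45%) and 3 (9.68%). Of 32 histone genes 6 rose (18.8%) and 5 fell (15.6%). Over all genes 12.9% rose and 14.4% fell. Among the histones, his-67 rose by 1.23 and his-35 fell by 0.92. With scaling on the bacterial controls the histones had 11 higher and 0 lower, the nuclear hormone receptors 11 and 0 at a median of 0.26 instead of -0.05, and the cytochrome P450 genes 3 and 1. The chemoreceptors then had 3 higher and 1 lower.

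**Figure D4:**
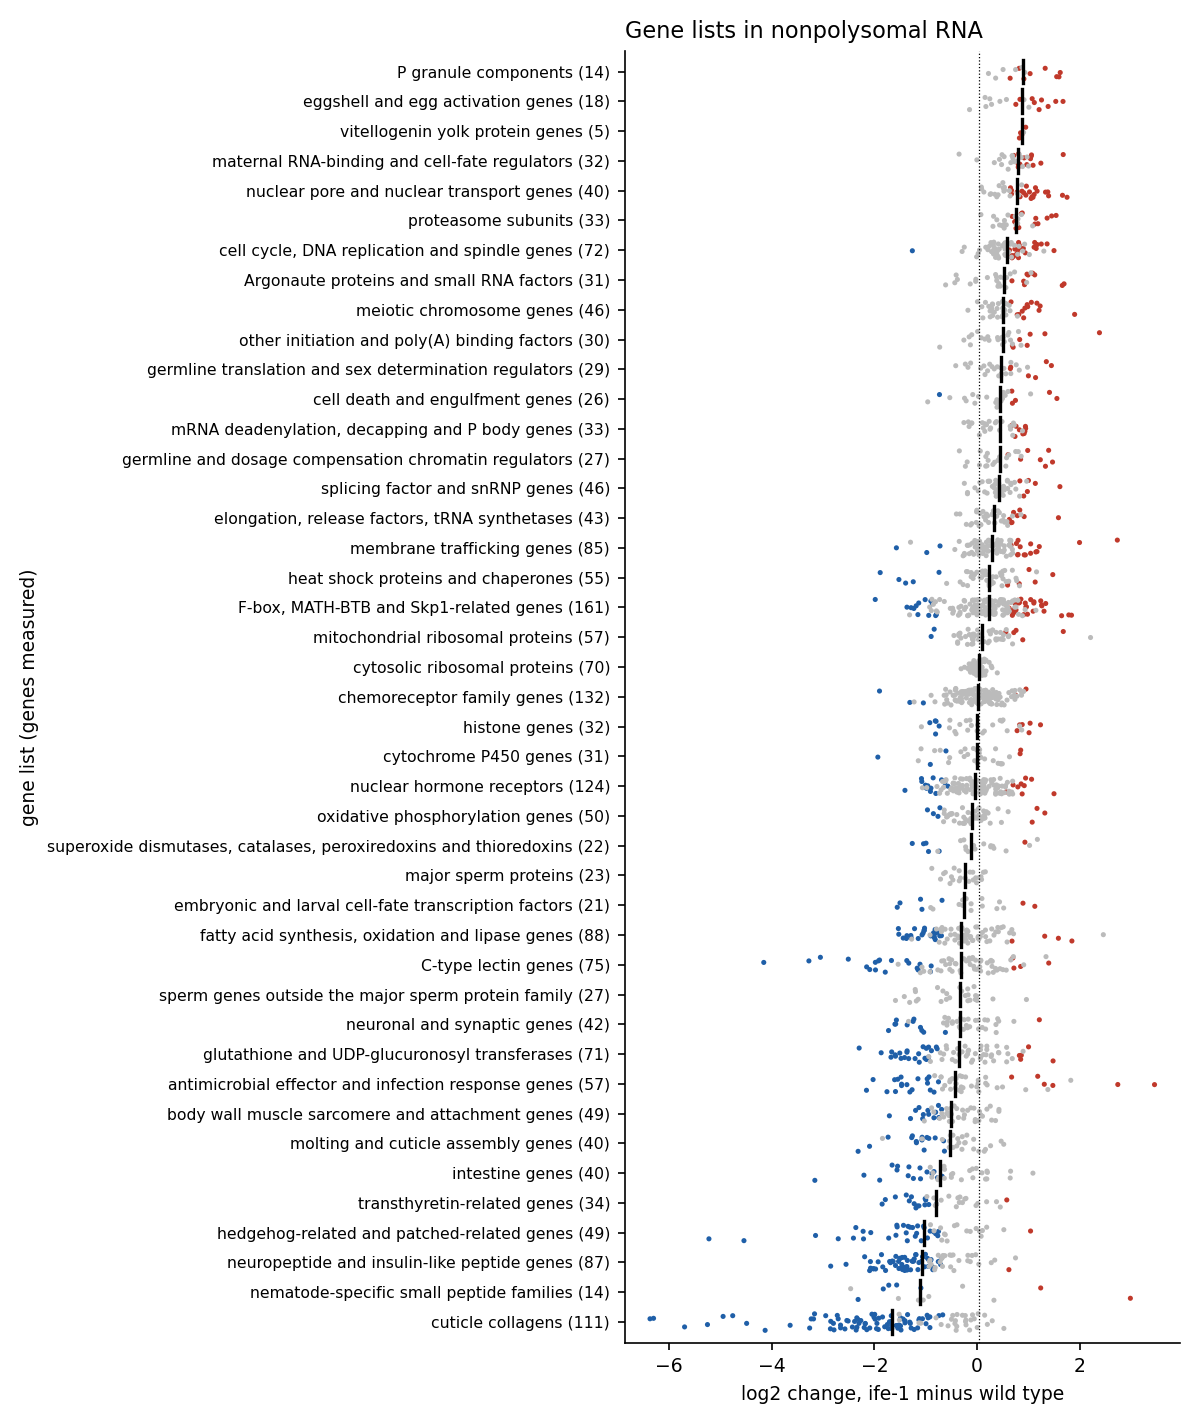
Each point is a gene, placed by its log2 change between ife-1 and wild type in nonpolysomal RNA, with red and blue for genes past the threshold in either direction and grey for the rest. Black bars are list medians, from -1.66 for cuticle collagens to 0.89 for P granule components, and the dotted line is the median of all genes, 0.04.

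By chromosome, from the RefSeq gene table of assembly WBcel235, the share of lower genes ranged from 9.11% on chromosome I to 23% on the X chromosome, against 14.4% of all genes. The share of higher genes ranged from 9.34% on X to 16.1% on I, against 12.9%. The median change was -0.26 on X, with 1414 genes, 0.17 on I, with 1734 genes, and 0.16 on III, with 1636 genes. Chromosome V, with 1996 genes, had 10.4% higher and 17.2% lower. No test was made of these shares. Of 8 mitochondrial genes, 0 passed the threshold in either direction.

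The polysomal RNA of the same cultures was then set beside the nonpolysomal values. For the cuticle collagens the median change was -1.66 in nonpolysomal and -1.29 in polysomal RNA, for the neuropeptides -1.08 and -1.13, and for the intestine genes -0.71 and -0.34. It was 0.89 and 1.26 for P granule components, 0.80 and 1.11 for maternal regulators and 0.76 and 0.22 for the proteasome. For the major sperm proteins, with wild-type set 2 included, it was -0.23 and -1.01. By the test between fractions given below, 0 members of these lists passed at their brightest probe set. The fractions come from the same cultures, so these pairs are not independent of each other.

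The change in nonpolysomal RNA was tested against that in polysomal RNA of the same culture. Of 13333 probe sets, 17 passed (0.128%), with the nonpolysomal change the more positive in 13 (0.0975%) and the more negative in 4 (0.03%). For iscu-1, the scaffold gene of iron-sulfur cluster assembly, the fractions moved in opposite directions. Its nonpolysomal signals were 137, 186 and 172 in wild type, with 1 of 3 present calls, and 498, 291 and 493 in the mutant, and it rose by 1.47 ± 0.25 (adjusted p = 0.00864). In polysomal RNA its change was -1.02 ± 0.16 (adjusted p = 0.00456), which gives a difference between fractions of 2.49 ± 0.24 (adjusted p = 0.0267). T12D8.5 gave 4316, 6083 and 3854 in the wild-type sets and 2089, 1689 and 1783 in the mutant and fell by 1.32 ± 0.21 (adjusted p = 0.00664), with a polysomal change of 0.41 ± 0.22 that did not pass (adjusted p = 0.175). ZK550.6 gave 3562, 3124 and 3551 and 745, 952 and 823, a fall of 2.05 ± 0.19 (adjusted p = 0.00194), beside a polysomal change of -0.36 ± 0.22 (adjusted p = 0.236). In both genes the nonpolysomal groups were far apart.

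For 3 of the called genes, by the brightest probe set, the nonpolysomal fall was the smaller one. elo-4, a fatty acid elongase gene, gave 509, 604 and 656 in the wild-type sets and 313, 315 and 347 in the mutant and fell by 0.83 ± 0.18 (adjusted p = 0.0174), while its polysomal change was -2.80 ± 0.19. K06H6.1, with 263, 85.7 and 212 in the wild-type sets and 48.5, 46.2 and 51.9 in the mutant, fell by 1.54 ± 0.42 (adjusted p = 0.0338) beside a polysomal change of -3.30 ± 0.45. None of these groups overlapped. Y43F8C.13, without a present call in the mutant, was at least 1.79-fold lower (adjusted p = 0.0486, and 0.0549 with the set as a block) beside a polysomal change of -3.28 ± 0.18. Rises were larger in nonpolysomal RNA for F15D4.5, with a polysomal change of 2.17 ± 0.26, and for R12C12.5, which went from 103.8, 172.4 and 112.4 to 623, 634 and 548 and rose by 2.33 ± 0.25 (adjusted p = 0.00272) beside a polysomal change of 0.75 ± 0.22. For ife-1 itself the changes were -4.83 ± 0.26 and -5.84 ± 0.21, and the difference did not pass (adjusted p = 0.077). With the set as a block, 0 probe sets passed the test between fractions by limma, although 2469 had an unadjusted p below 0.05. Without set 1, set 2 or set 3 the count was 0 each time, with 1378, 3459 and 1623 at an unadjusted p below 0.05.

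**Figure D5:**
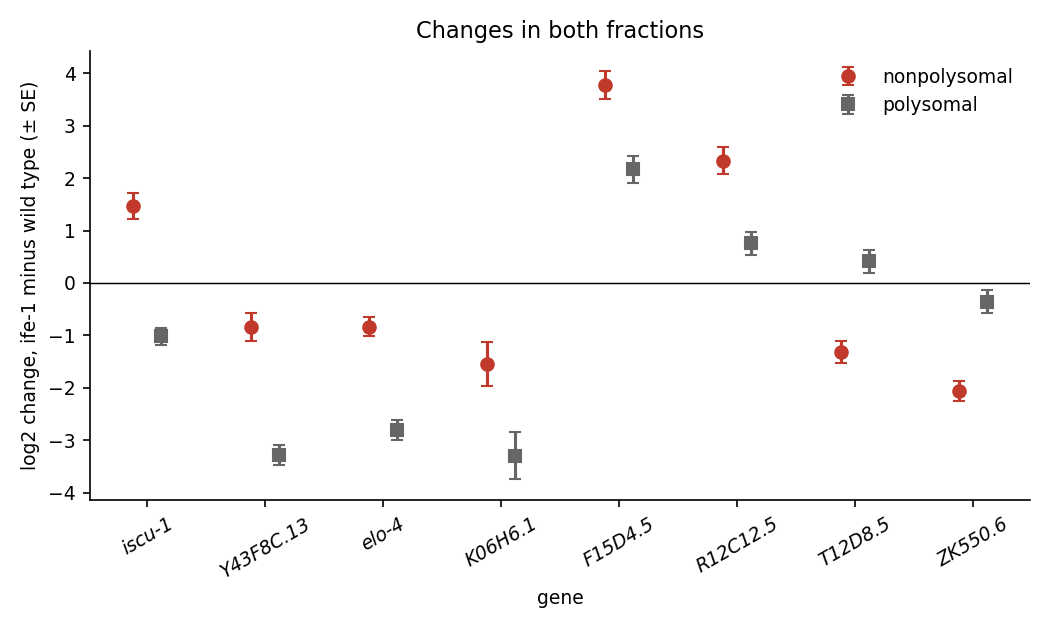
For 8 genes the log2 change between ife-1 and wild type is plotted with its standard error in nonpolysomal (red circles) and polysomal RNA (grey squares). The points of iscu-1 lie on opposite sides of 0, at 1.47 and -1.02, and those of elo-4 at -0.83 and -2.80.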

How the data were processed

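The authors' deposited table gives a linear signal intensity per probe set of an Affymetrix C. elegans array, reduced by the authors on detection, per the file headers. Detection calls were deposited as well (present or absent) and belong to a group, with no array named. No source used here names the software, scaling or background treatment, and 45 further per-sample columns were not used. Signals were floored at 1, put on the log2 scale and quantile normalized over all 12 arrays. limma 3.58.1 in R 4.3.3 (lmFit, eBayes) was fitted to the 6 nonpolysomal arrays, and p-values were adjusted over 13333 probe sets by the Benjamini-Hochberg method (threshold 0.05). Deposited signals, as printed, were not normalized here; changes and tests were. A gene was counted by its brightest probe set that names 1 gene, using the platform annotation with symbols updated through RefSeq. The test between fractions used the difference of log2 signals within each culture. The members and gene lists were chosen with earlier results of these data known. Genes were named by rule: the eIF4E isoforms, the 15 largest called changes without overlap in each direction, up to 6 members of each list by smallest p, up to 8 called genes in each direction by size of the bound, and up to 8 called genes by smallest p between fractions. The neuronal markers without a present call (glr-1, osm-5, snf-11) were named after their values were seen.

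Per the deposited outline of the study, a wild-type and an ife-1 sample were paired in each growth set. Deviations of same-numbered arrays from their group means correlated at -0.07, -0.02 and 0.13. Those of differently numbered arrays ranged from -0.17 to 0.19. Alternatives covered scaling, an offset of 50, filters, the variance model, the block and arrays left out. Tables and figures were made with pandas 2.3.3 and matplotlib 3.10.9 in Python 3.11.15.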

Additional observations from a re-analysis of the deposited data

Results flagged for a closer look

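For 8 genes named above, by the brightest probe set, the change between ife-1 and wild type differed between the nonpolysomal and the polysomal fraction by the test of the difference itself (limma, adjusted p = 0.0267 to 0.0444). Another probe set of grl-20 passed as well, with changes of -2.99 and -5.13 (limma, adjusted p = 0.0435). The nonpolysomal change exceeded the polysomal one by 2.49 on the log2 scale for iscu-1, 2.44 for Y43F8C.13, 1.97 for elo-4, 1.76 for K06H6.1, 1.61 for F15D4.5 and 1.58 for R12C12.5. The difference was -1.73 for T12D8.5 and -1.70 for ZK550.6. Each value rests on 3 cultures per genotype, and none passed with the set as a block.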

How the results depend on the processing

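With scaling on the bacterial controls, 3399 probe sets were higher and 465 lower, and 791 rather than 2736 lay below wild type without overlap. Calls that were higher made up 51.6% of all calls, 46.9% with signals as deposited and 88% with bacterial scaling. The filter on dim probe sets left 1948 above and 1568 below without overlap, among 6666 tested. The medians of lipid, muscle and neuron genes became 0.0791, 0.0193 and 0.11 with bacterial scaling. That of the ribosomal proteins became -0.40 with signals as deposited and -0.39 with median scaling, and that of the ubiquitin ligase adapters -0.0113 with signals as deposited. Of the genes named in the text, 45 lost the call with bacterial scaling and 4 gained one. The causes were not tested. Leaving out 1 set or 1 array gave 2 to 2207 probe sets higher and 1 to 2209 lower. The lowest counts came without set 3, where 3922 had an unadjusted limma p below 0.05, and without set 1, where 3186 did. Without single arrays, the counts were 862 higher without wild-type set 1, 341 and 662 without mutant set 1, and 415 and 739 without mutant set 3. Of the 199 called genes named in the text, 186 lost the call without set 1, 6 without set 2 and 197 without set 3. Without the mutant array of set 1 alone 85 lost it, and without that of set 3 alone 79. In none of these settings did a called change turn its sign. With the set as a block, 1441 were higher and 1520 lower, against 1875 and 1758 without it. Of 199 called genes named in the text 4 lost the call, each given above, and no other call among them changed. Called list members left out of the text lost it as well, among them gpx-6 (limma with the block, adjusted p = 0.0782), cyp-43A1 (0.0756) and eif-3.K (0.0647). The 4 are therefore no measure of the loss among all calls. The settings for the test between fractions were chosen after seeing the data. Against 17 probe sets, it called 9 with signals as deposited, 342 with bacterial scaling, 609 with 50 added to each signal, 568 above the median signal, 0 with the replicate block and 0 without each set. With 3 arrays per group, weak signals near the floor limit the precision of the lower group's level.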
